A study of Triticum aestivum with 15 samples.

Results

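Light-harvesting complex II (LHCII) is the outer antenna of photosystem II, and 11 probe sets of the Wheat Genome Array that stand for its chlorophyll a/b-binding proteins were followed here, of 61179 probe sets other than controls. They are all the entries that the study's table of photosynthetic components names as LHCII chlorophyll a/b-binding proteins. The study listed them because of their change in these same arrays, 10 of them in the comparison of the alloplasmic line TH237 with T20, so the values of that comparison chose the members and are given below without a test. The remaining one, Ta.22984.1.S1_x_at, stands under T195 in one table of the study and under TH237 in another. All 11 were among the 31555 probe sets kept by a filter on dim signals, which asked for a signal above the 55th percentile of the array on at least 3 arrays. A filter of this kind can be passed through the bright lines alone.

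RNA came from the second fully expanded leaf of 14-day-old seedlings in garden soil, under the higher of the study's light intensities. The 5 groups of arrays were named by the labels, with 3 replicates in each and 15 arrays in all, and plants of a pot had been bulked for a replicate. EU_T20 is the euplasmic wheat accession T20, with its own nucleus and cytoplasm, and ALLO_TH237 (TH237) has the T20 nucleus in the cytoplasm of the wild barley Hordeum chilense. EU_CHRIS is the euplasmic wheat cultivar Chris, whose nucleus is shared by ALLO_183 (T183), with the cytoplasm of Aegilops uniaristata, and by ALLO_195 (T195), with that of Aegilops squarrosa, also called Ae. tauschii. T20 is thus the control of TH237, and Chris the control of both other lines. Alloplasmic lines are made by repeated backcrossing, and by the methods TH237 came from fewer backcrosses than the Aegilops lines, so that residual nuclear differences and cytoplasm cannot be told apart.

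LHCII proteins bind chlorophyll a and b and pass the absorbed light energy to the reaction centre of photosystem II. They are encoded in the nucleus by a multigene family, made in the cytosol and imported into the chloroplast, where trimers of the major forms LHCB1, LHCB2 and LHCB3 are held in the thylakoid membrane. In plants their transcripts are known to respond to light, to the circadian clock, to tetrapyrrole synthesis and to signals from the plastid. By the study's annotation, 6 of the 11 probe sets best match the Arabidopsis gene AT2G34430 (LHB1B1) and 5 match AT2G34420 (LHB1B2), both of which encode LHCB1 proteins. Identifiers of 4 members end in _at, and those of 7 end in _x_at, the ending that Affymetrix gives to probe sets in which probes may also match other sequences. Signals of similar LHCB1 copies can therefore be mixed, and the members are not independent genes. Their chromosomal positions are not given, since no genome build goes with the array's table.

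Arrays were comparable as a whole. The median signal per array lay between 67.3 and 94.9, and the 55th percentile between 89.98 and 121. Of 11 probe sets for gluten proteins and gliadins, which mark seed endosperm, 9 lay below the 55th percentile on all 15 arrays and none lay above it on all of them. The leaf list was mixed. Of 30 probe sets for both Rubisco subunits and the photosystem II protein D1, 8 lay above the percentile on every array and 13 on none. Polyubiquitin, the study's reference gene, lay between 13.45 and 13.97 on the log2 scale. In whole leaves, fewer green cells and less RNA per cell cannot be told apart. All levels below are log2 of the signal plus 16, and levels of different probe sets are not compared with each other because probes differ in brightness.

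For 10 of the 11 members the line means had the same order. TH237 was highest, then T20, then Chris, and T183 and T195 were lowest. The exception was Ta.29587.2.S1_x_at. The comparison of TH237 with T20 chose the members, so nothing is read from this count. The step from Chris down to T183 and T195 rested in part on Chris replicate 3. Without that array, the T183 mean was above the Chris mean in Ta.3249.3.A1_at, Ta.29587.3.A1_at and Ta.28496.1.A1_at. In Ta.3249.1.S1_at the T195 mean was then above the Chris mean. In 6 members, including these, all T183 and T195 signals and those of the other Chris arrays lay below the percentile used by the filter. Without Chris replicate 3, no order of these lines can be read for them.

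Of the members, Ta.3249.1.S1_at, annotated as LHB1B1, had the largest difference between TH237 and T20. T20 arrays read 8.67, 9.80 and 10.67, and TH237 arrays 13.55, 13.26 and 12.95. Chris read 4.33, 4.73 and 9.80, T183 4.25, 4.08 and 4.41 and T195 5.22, 4.39 and 4.22. Thus TH237 and T20 formed separate groups of arrays, and T183, T195 and Chris replicates 1 and 2 lay close to the value that a signal of 0 gives, while Chris replicate 3 lay inside the range of T20. On the linear scale the 3 Chris signals were 4.07, 10.5 and 873.

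Another probe set of this cluster, Ta.3249.3.A1_at, had the same arrangement. T20 arrays read 9.40, 10.31 and 10.80, and the 3 TH237 arrays were close together at 13.23, 13.33 and 13.18. Chris gave 5.93, 5.62 and 10.18, T183 6.56, 5.73 and 5.77 and T195 5.12, 5.95 and 5.83. Again only Chris replicate 3 was among the T20 values. The remaining probe set of the cluster, Ta.3249.2.S1_x_at, matches LHB1B2 and had means of 11.10 ± 0.24 (T20; SD, n = 3), 12.67 ± 0.08 (TH237), 8.86 ± 1.01 (Chris), 7.74 ± 0.47 (T183) and 7.68 ± 0.70 (T195). It stayed above the 55th percentile on all 15 arrays, and its Chris replicate 3, at 10.03, stood between the other Chris arrays and T20.

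Both probe sets of the Ta.28496.1 sequence, matching LHB1B1, can be set side by side because they differ in their probes and not in their target. Ta.28496.1.A1_at had T20 arrays at 8.24, 9.28 and 10.55, TH237 arrays at 12.21, 12.32 and 12.26 and Chris arrays at 5.57, 6.03 and 9.35. Its T183 arrays read 5.81, 6.19 and 5.77, and its T195 arrays 5.42, 4.60 and 5.09. For Ta.28496.1.A1_x_at the T20 arrays read 9.04, 9.93 and 11.17, the TH237 arrays 12.60, 12.89 and 12.72 and the Chris arrays 6.65, 6.13 and 9.88. Its T183 values were 5.76, 6.39 and 5.77, and its T195 values 4.66, 5.28 and 5.52. Either way TH237 lay above all T20 arrays and T20 spread over more than 2 log2 units. All T183 and T195 signals of both probe sets were below the 55th percentile.

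A narrower step between T20 and TH237 went with a wide one between T20 and Chris in Ta.22984.1.S1_x_at, which matches LHB1B1. T20 was at 13.82, 14.24 and 14.47 and TH237 at 15.08, 15.26 and 15.33. Chris read 9.90, 10.31 and 12.76, T183 8.17, 9.15 and 9.68 and T195 9.06, 9.99 and 9.01. On each of the 15 arrays this probe set was above the 55th percentile, so that its low levels in T183 and T195 were measured and not at the limit of the scale. The same holds for Ta.3795.1.S1_x_at, matching LHB1B2, whose T20 arrays read 11.44, 12.63 and 12.65 and TH237 arrays 14.25, 14.68 and 14.59. Chris arrays of Ta.3795.1.S1_x_at were at 9.14, 8.72 and 10.29, T183 arrays at 7.45, 8.02 and 8.29 and T195 arrays at 8.40, 8.13 and 8.03. It is the only member that carries a gene identifier in the platform annotation. T183 and T195 overlapped with each other in both probe sets and lay below all Chris arrays in Ta.3795.1.S1_x_at.

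Further members with the common order were Ta.30702.1.S1_x_at and TaAffx.114127.1.S1_x_at, both matching LHB1B2, and Ta.29587.3.A1_at, matching LHB1B1. Ta.30702.1.S1_x_at read 9.41, 9.82 and 10.77 (T20), 12.31, 12.41 and 12.26 (TH237) and 7.11, 7.29 and 8.92 (Chris), with means of 6.93 ± 0.34 for T183 and 6.93 ± 0.03 for T195 (SD, n = 3). For TaAffx.114127.1.S1_x_at the means of T20, TH237, Chris, T183 and T195 were 10.20 ± 0.70, 13.12 ± 0.46, 6.62 ± 0.79, 5.97 ± 0.47 and 5.97 ± 0.76. In the same order of lines, Ta.29587.3.A1_at had 6.92 ± 0.66, 10.29 ± 0.50, 6.18 ± 0.77, 6.01 ± 0.86 and 5.51 ± 0.13. In this last probe set T20 itself was dim, above the 55th percentile on 2 of 3 arrays, and TH237 was the only line in which all arrays were above it.

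The exception, Ta.29587.2.S1_x_at, matches LHB1B2 and was bright in every line. T20 arrays read 12.89, 11.25 and 11.76, TH237 arrays 12.43, 12.79 and 12.59 and Chris arrays 11.93, 12.27 and 11.55. T183 read 11.39, 10.90 and 11.10 and T195 11.38, 13.12 and 12.62. T20 and T195 arrays overlapped with those of every other line, T183 lay below all Chris and TH237 arrays, and Chris replicate 3 was the lowest of its line. Its correlation with each of the other 10 members over the 15 arrays lay between 0.23 and 0.36, whereas the 45 pairs among those 10 lay between 0.83 and 0.99, with a median of 0.97. These correlations are descriptions. The arrays share lines, and most of the common variation is that between lines.

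**Figure D1:**
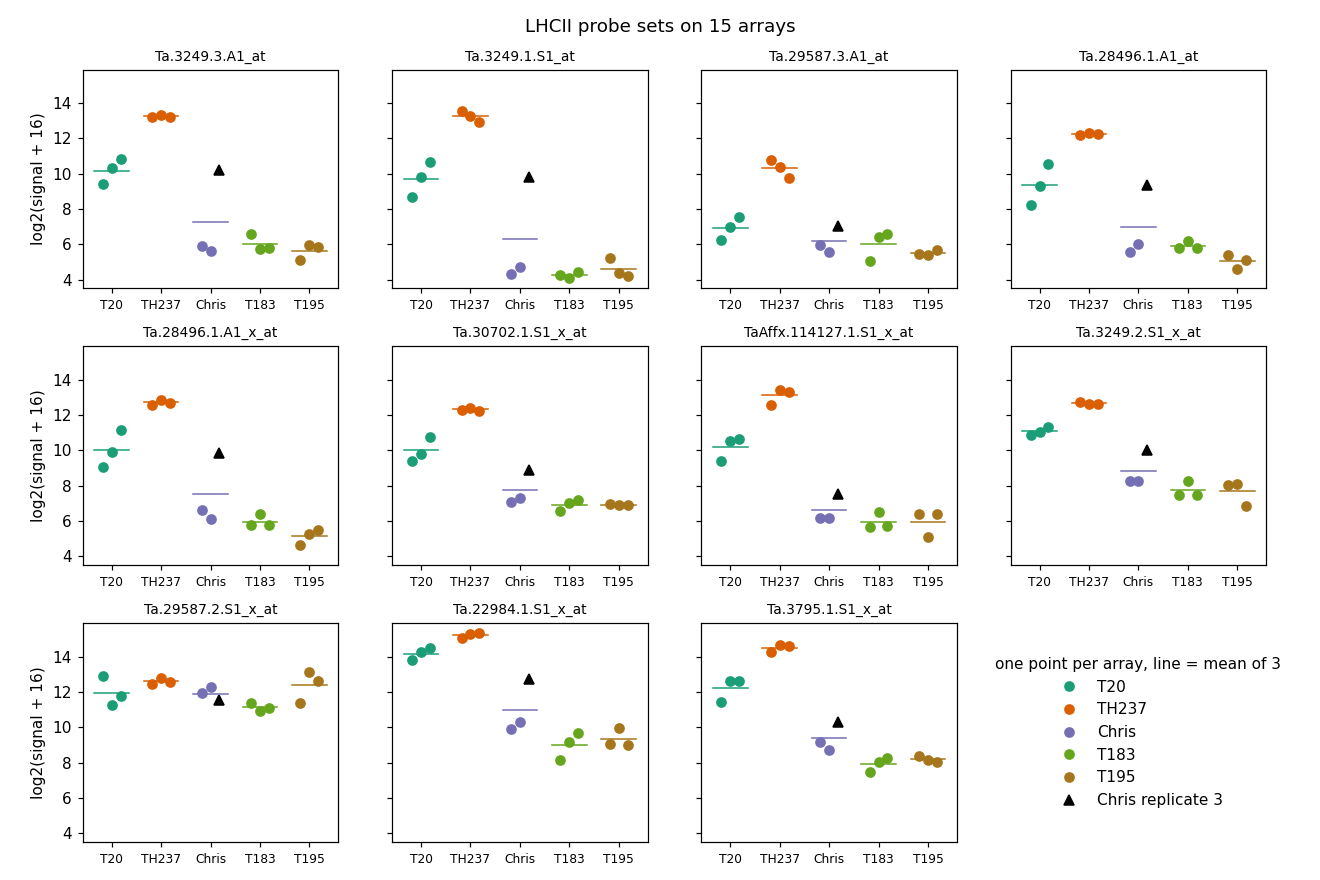
Log2(signal + 16) of the 11 LHCII probe sets (vertical axes) on each of 15 arrays, by line (horizontal axes). Points are single arrays, lines are means of 3 arrays and black triangles mark Chris replicate 3, which lies above the other 2 Chris arrays in 10 of 11 panels.

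TH237 carried more LHCII signal than T20 in each of the 11 members. The change was at least 2-fold in 10 of them, against 2.73% of all probe sets tested, and in the same 10 every TH237 array was above every T20 array, as in 12.4% of all probe sets. Because this comparison chose the members, nothing is read from these counts. Log2 changes ran from 0.64 ± 0.43 (SE) in Ta.29587.2.S1_x_at to 3.54 ± 1.05 in Ta.3249.1.S1_at, with a median of 2.68 beside a median of 0.0014 for all probe sets. Nearest to the 2-fold limit on its upper side was Ta.22984.1.S1_x_at at 1.05 ± 0.60, and Ta.29587.2.S1_x_at was the member below it. The 4 members ending in _at changed by 2.90 to 3.54 and the 7 ending in _x_at by 0.64 to 2.92. Over the LHB1B1 matches the changes ran from 1.05 to 3.54 (median 2.99), and over the LHB1B2 matches from 0.64 to 2.92 (median 2.27).

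T20 arrays scattered more than TH237 arrays. In 10 of 11 members the first T20 array was the lowest of its line, and in 10 the third was the highest. Over the members, the first T20 array differed from the mean of the other 2 by a median of -1.15 log2 units, and the third by 0.94. For the TH237 arrays these medians were -0.07, 0.13 and -0.03. Over all probe sets the same differences had medians of -0.02 and 0.01 for those T20 arrays. Deviations from the line mean were correlated among the 10 members other than Ta.29587.2.S1_x_at (median r of 0.49 over 45 pairs and the 12 arrays outside Chris, range -0.08 to 0.85), given as a description.

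The nuclear backgrounds themselves differed. T20 was above Chris in all 11 members by the line mean and by at least 2-fold in 9, against 4.39% of all probe sets. Since T20 arrays took part in choosing the members, this too is a description. Log2 differences ran from 0.05 ± 0.43 (SE) in Ta.29587.2.S1_x_at and 0.74 ± 0.47 in Ta.29587.3.A1_at, the 2 under 2-fold, to 3.58 ± 0.48 in TaAffx.114127.1.S1_x_at. The median was 2.50, beside 0.01 for all probe sets. Every T20 array was above every Chris array in 5 members, against 16.1% of all probe sets. With Chris replicates 1 and 2 alone, 10 members met this, against 23.0% of all probe sets, and the median difference was 3.56. In 6 members Chris was above the 55th percentile on 1 of its 3 arrays only, so that the size of those differences depends on the 16 added before the log2.

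Levels in the lines with Aegilops cytoplasms were tested against Chris, whose arrays took no part in choosing 10 of the members. Ta.22984.1.S1_x_at, entered under T195 in the study, gets no test in any comparison with Chris or T195, and its values there are descriptions. A further 6 members lay below the 55th percentile on all 3 arrays of T183 and of T195. Their fitted changes thus depend on the 16 added before the log2, and the size of these changes is not known. Both Ta.28496.1 probe sets, Ta.3249.1.S1_at, Ta.3249.3.A1_at, Ta.29587.3.A1_at and TaAffx.114127.1.S1_x_at are these 6.

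In T183 all 11 members were lower than Chris by the line mean, with a median fitted change of -1.13 beside -0.01 for all probe sets. Over the 5 members that are not among the 6 dim ones, log2 changes ran from -1.99 in Ta.22984.1.S1_x_at to -0.78 in Ta.29587.2.S1_x_at. None of the 10 members tested was called at a Benjamini-Hochberg adjusted p of at most 0.05 and a 2-fold change in the limma model, where 0.124% of all probe sets were called. The methods' t-test called 0 of them and 0.00317% of all probe sets, which is 1 probe set. At an unadjusted p below 0.05 in limma there were 2, Ta.3249.2.S1_x_at and Ta.3795.1.S1_x_at, of the 4 tested members that were not dim. Of all probe sets, 6.89% reached this. The lowest adjusted p belonged to Ta.3795.1.S1_x_at, with a change of -1.47 (95% interval -2.31 to -0.62, adjusted p = 0.320 from limma). Every T183 array was below every Chris array in 3 of the 11 members, against 6.24% of all probe sets, and Ta.22984.1.S1_x_at was one of them.

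T195 was lower than Chris in 10 members and higher in Ta.29587.2.S1_x_at, at 0.46 (95% interval -0.47 to 1.39). The median fitted change was -1.20 beside -0.01 for all probe sets, and over the 5 members that are not dim in T195 the lowest was -1.64 ± 0.60 (SE) in Ta.22984.1.S1_x_at. Again 0 of the 10 tested were called by limma, against 0.254% of all probe sets. The methods' t-test called 0 of all 31555 probe sets here, so that its count of members was fixed at 0. Of the 4 tested members that were not dim in T195, 2 had an unadjusted p below 0.05 in limma, against 11.2% of all probe sets. Of these, Ta.3795.1.S1_x_at had a change of -1.20 (95% interval -2.04 to -0.35, adjusted p = 0.256 from limma) and Ta.3249.2.S1_x_at one of -1.18 (95% interval -2.13 to -0.23, adjusted p = 0.327 from limma). The dim members, both Ta.28496.1 probe sets among them, are left out of this count and no p is given for them. Their T195 signals were all below the percentile of the filter, and in Chris only replicate 3 was above it. Every T195 array was below every Chris array in 5 members, of which 3 were not dim, against 8.98% of all probe sets. The T183 and T195 comparisons share the 3 Chris arrays and are not independent of each other.

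Both directions occurred in the same members. In 10 members every TH237 array was above the T20 mean and every T183 array below the Chris mean, against 6.76% of all probe sets, and in 10 this was so with T195 in place of T183, against 7.93%. Against the mean of Chris replicates 1 and 2 alone the counts were 5 for T183 (6.59% of all probe sets) and 7 for T195 (7.88%). The TH237 side of these counts chose the members, so nothing is read from them.

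For the 6 dim members, each T183 and T195 signal below the 55th percentile was raised to it. Chris was then 1.08-fold to 1.60-fold higher than T183 in 3 of them (Ta.3249.3.A1_at and both Ta.28496.1 probe sets). In the same 3 it was 1.13-fold to 1.68-fold higher than T195. The other 3 gave no ratio above 1. In each of the 6, Chris itself was above the percentile on 1 array, replicate 3. The other Chris signals, below the percentile too, were used as they stood, so these ratios are not lower limits. The percentile was chosen for this step after the values had been seen.

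Between T183 and T195 themselves, 0 of the 10 members tested were called by limma, against 0.0729% of all probe sets. Of these 10, 6 were dim on all arrays of both lines, so no difference between the lines can be read for them. The methods' t-test called 0 of all 31555 probe sets and so could not single out a member. Ta.29587.2.S1_x_at alone had an unadjusted p below 0.05 in limma (7.89% of all probe sets), with a T183 minus T195 difference of -1.24 (95% interval -2.17 to -0.31, adjusted p = 0.450). For Ta.3795.1.S1_x_at the difference was -0.27 (95% interval -1.11 to 0.58). This interval reaches past a 2-fold difference, and equal levels are not shown by it. Ta.22984.1.S1_x_at, without a test, differed by -0.35.

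**Figure D2:**
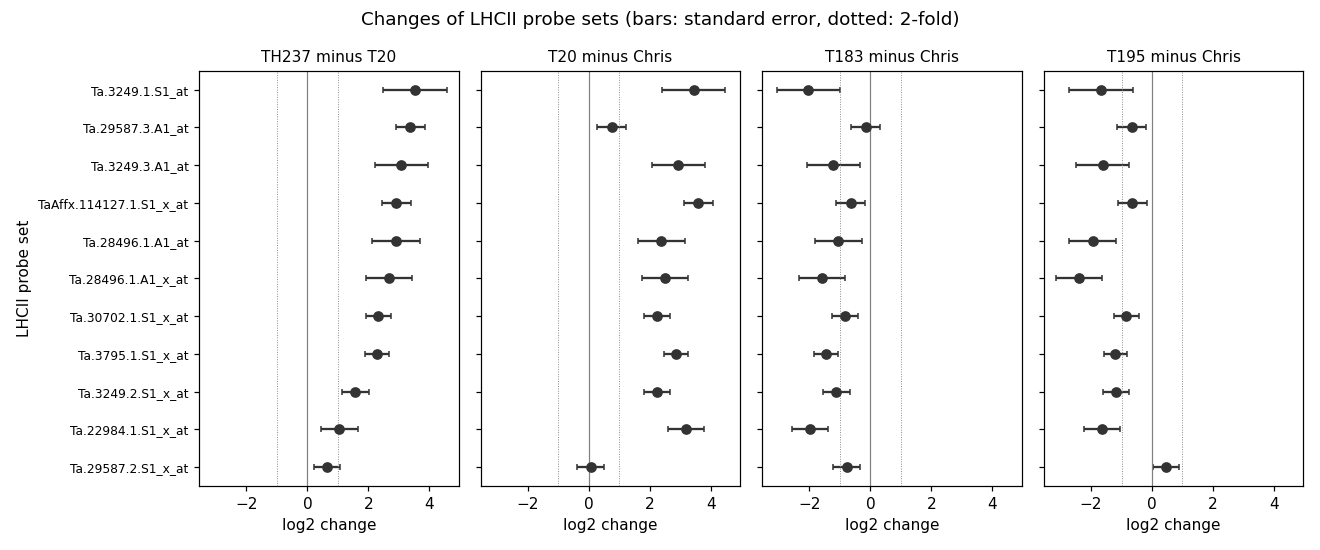
Log2 changes of the 11 LHCII probe sets (horizontal axes) in 4 comparisons, with standard errors of the limma model as bars and dotted lines at 2-fold. TH237 exceeds T20 in all 11, T20 exceeds Chris in all 11, and T183 and T195 lie mostly below Chris with wide errors.

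Replicate 3 of Chris stood apart from the other Chris arrays. It was above both other Chris arrays in 10 of 11 members and above all 8 other arrays of the Chris nucleus in the same 10, which 13.7% of all probe sets met. Its distance from the mean of replicates 1 and 2 was over 1 log2 unit in 10 members, against 2.80% of all probe sets. The array was singled out with its values at the members known, so these counts are descriptions and nothing is read from them. The distance was greatest in Ta.3249.1.S1_at at 5.27, followed by Ta.3249.3.A1_at at 4.41, Ta.28496.1.A1_at at 3.55 and Ta.28496.1.A1_x_at at 3.49. It was 2.66 in Ta.22984.1.S1_x_at and 1.36 in Ta.3795.1.S1_x_at, and -0.55 in Ta.29587.2.S1_x_at. In 6 members the array fell within the range of T20, in the other 5 below all T20 arrays, and in all 11 below every TH237 array.

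The array was not unusual as a whole. Over the probe sets tested it correlated with Chris replicates 1 and 2 at 0.966 and 0.961, which correlated with each other at 0.965. The share of probe sets over 1 log2 unit above the partner arrays was 1.11% to 3.43% on the other 14 arrays. On none of those 14 did more than 4 members exceed their partners by over 1 log2 unit. Polyubiquitin differed by -0.19 between replicate 3 and the mean of the other 2 Chris arrays.

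Probe sets that tell the backgrounds apart were then read on this array. Of probe sets other than the members and their cluster, 25 were above a signal of 500 on all arrays of T20 and TH237 and below 60 on all 8 other arrays of Chris, T183 and T195. On Chris replicate 3 they had a median signal of 14.8 and a highest signal of 77.9, and 0 of 25 were above the 55th percentile, whereas in T20 their median was 1584. In the opposite direction, 22 probe sets were below 60 in T20 and TH237 and above 500 on the 8 arrays, and all 22 were above 500 on Chris replicate 3 (median 858, beside 921 in replicates 1 and 2). By these probe sets the array had the levels of Chris. These limits were set after the values had been seen.

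**Figure D3:**
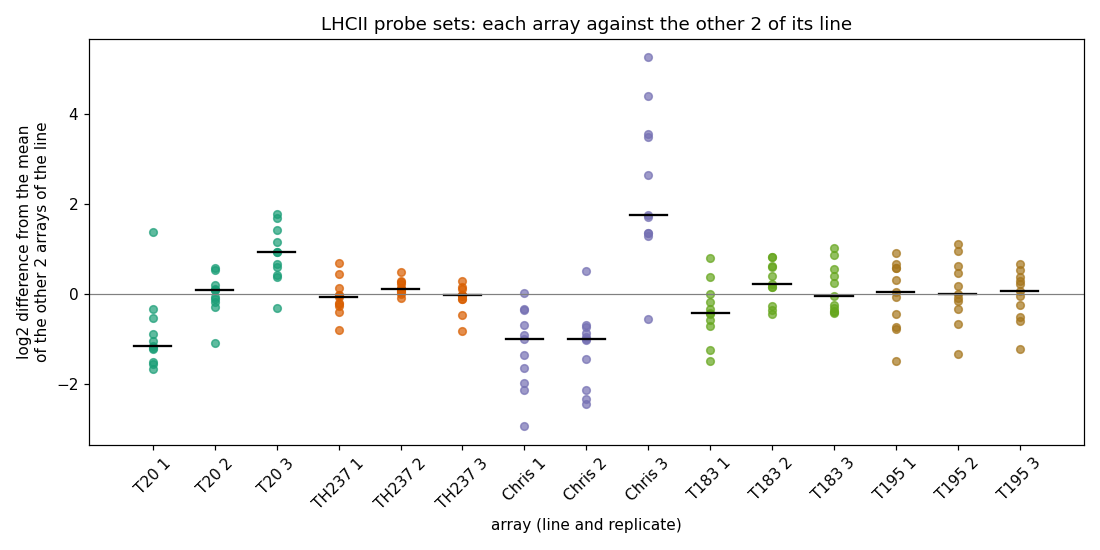
Log2 difference of each array from the mean of the other 2 arrays of its line (vertical axis) for the 11 LHCII probe sets, by array (horizontal axis), with the median as a black bar. Chris replicate 3 reaches 5.27, and the medians of T20 replicates 1 and 3 lie on opposite sides of 0.

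Without Chris replicate 3 the median over all members became -0.28 in T183 and -0.27 in T195, with the 6 dim members counted in it. Of the 10 tested, 0 were called in either line, against 0.0919% and 0.105% of all probe sets. For the 6 dim members both sides of each comparison then lay below the 55th percentile, so that neither a size nor a direction can be read for them. Over the 5 others the T183 changes ran from -1.10 in Ta.22984.1.S1_x_at to -0.26 in Ta.30702.1.S1_x_at. Among these, Ta.29587.2.S1_x_at went from -0.78 to -0.97 and the other changes shrank. The T195 changes of the 5 ran from -0.75 in Ta.22984.1.S1_x_at to 0.28 in Ta.29587.2.S1_x_at. In T183 Ta.3795.1.S1_x_at kept a change of -1.01 (95% interval -1.78 to -0.25, adjusted p = 0.807 from limma), and Ta.22984.1.S1_x_at, as a description, one of -1.10 ± 0.40 (SE). In T195 these changes were -0.74 (95% interval -1.51 to 0.02, adjusted p = 0.545 from limma) and -0.75 ± 0.40.

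Of the other probe sets in the members' clusters there were 3, of which 2 passed the filter. Ta.22984.2.S1_x_at behaved as the members did, with mean log2 levels of 14.22 ± 0.34 (T20), 15.44 ± 0.22 (TH237), 9.17 ± 2.35 (Chris), 7.09 ± 0.62 (T183) and 7.49 ± 0.37 (T195; SD, n = 3). It was 1.22 ± 0.80 (SE) higher in TH237 than in T20 and 3.99 higher on Chris replicate 3 than on the other 2 Chris arrays, although the study's table does not list it. Ta.22984.3.S1_at did not follow them. Its levels were 10.29 ± 0.28, 10.42 ± 0.25, 10.84 ± 0.11, 11.01 ± 0.35 and 11.01 ± 0.40 in the same order of lines, and Chris replicate 3 differed by 0.18. Neither was called in T183 or T195. The one removed by the filter, Ta.29587.1.A1_at, was above the 55th percentile on 1 array, of TH237.

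The 5 probe sets whose pattern over the 15 arrays was most like the mean of the members had Pearson r of 0.984 to 0.989, among 31542 compared, and 152 probe sets had r over 0.95. Nearest was Ta.4346.1.A1_x_at, which is not annotated in the tables used. Ta.488.1.S1_x_at is annotated as ascorbate peroxidase APX4, a protein named for a family that reduces hydrogen peroxide. Its means were 11.69 ± 0.48 (T20), 13.59 ± 0.16 (TH237), 8.76 ± 2.19 (Chris), 6.75 ± 0.33 (T183) and 6.69 ± 0.45 (T195), and Chris replicate 3 was 3.79 above the other 2 Chris arrays. Ta.3243.1.S1_x_at is annotated as HEMA1, glutamyl-tRNA reductase, which commits glutamate to tetrapyrrole and so to chlorophyll synthesis, and Chris replicate 3 was 1.31 above the others. Ta.8554.1.S1_at and Ta.5345.3.S1_x_at completed the 5. With 15 arrays in 5 lines, any probe set with the same order of lines gives a high r.

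Other photosynthesis-related probe sets formed a list of 21, drawn from the study's classes for photosynthesis, tetrapyrrole synthesis and light signalling and from gene symbols, and 20 passed the filter. Most were chosen by the study on these samples, so the list is no independent evidence of a direction. In TH237 against T20, 8 were at least 2-fold higher and 3 at least 2-fold lower, with a median of 0.73. The extremes were an ATP synthase CF0 B chain probe set, TaAffx.128565.9.S1_at, at 5.36 ± 0.27 (SE), and a psbM probe set, TaAffx.48564.2.S1_s_at, at -6.06 ± 0.32. Both proteins are encoded in the plastid genome, which in TH237 is that of H. chilense. In T20 against Chris, 4 were at least 2-fold higher and 3 lower, from -1.48 ± 0.37 in an ELIP1 probe set, TaAffx.128418.14.A1_at, to 5.98 ± 0.50 in the CCR-like probe set Ta.30807.2.S1_s_at. ELIP1 is an early light-inducible chlorophyll-binding protein.

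In T183 against Chris, 0 of the 20 were called higher and 2 lower by limma, and in T195 0 higher and 3 lower, with medians of -0.44 and -0.40. Of all probe sets, 0.124% in T183 and 0.254% in T195 were called in either direction. The study had listed those called here for their change in these same comparisons. Nothing is therefore read from the counts, and no p is given for them. Lower in both lines were 2 psbE probe sets, for the plastid-encoded cytochrome b559 alpha subunit of photosystem II. Each alloplasmic line carries a foreign plastid genome, and the study told wheat from Aegilops cytoplasm by a sequence marker in psbE and psbF. Whether the psbE probes match those genomes equally well was not tested. Their lower signal was not limited to the Aegilops lines. In TH237 against T20, TaAffx.6196.2.S1_s_at changed by -4.93 and TaAffx.6196.1.S1_at by -4.96. TaAffx.6196.2.S1_s_at had log2 changes of -5.87 in T183 and -5.61 in T195 (each ± 0.35, SE), and TaAffx.6196.1.S1_at of -5.29 and -4.90 (each ± 0.29). In T195 Ta.20878.1.S1_at, annotated as a UV-B-repressible protein, fell as well, with a change of -1.14 ± 0.21 (SE). The most positive changes were 1.10 in T183 in the ELIP1 probe set Ta.25398.1.S1_at and 0.81 in T195 in TaAffx.128418.14.A1_at, neither of them called. Between T183 and T195 none of the 20 was called by limma, against 0.0729% of all probe sets. The extremes were Ta.25398.1.S1_at at 0.66 and Ta.20830.1.A1_at at -0.72.

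On Chris replicate 3, 6 of the 20 were over 1 log2 unit above the mean of the other Chris arrays and 0 were as far below it. The median difference was 0.57. Chosen after its values had been seen, Ta.20830.1.A1_at, a Rubisco small subunit probe set, read 7.99, 8.97 and 11.89 on the 3 Chris arrays. Both CCR-like probe sets were high in T20 as the members were, and they differed on that array. Ta.30807.2.S1_s_at read 4.30, 5.96 and 4.71 on the Chris arrays, with replicate 3 between the others, and Ta.30807.1.S1_at read 6.59, 6.10 and 7.61, with replicate 3 above the mean of the others by 1.26. The psbE probe set TaAffx.6196.1.S1_at differed there by 0.19. What set this replicate apart was not tested.

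**Figure D4:**
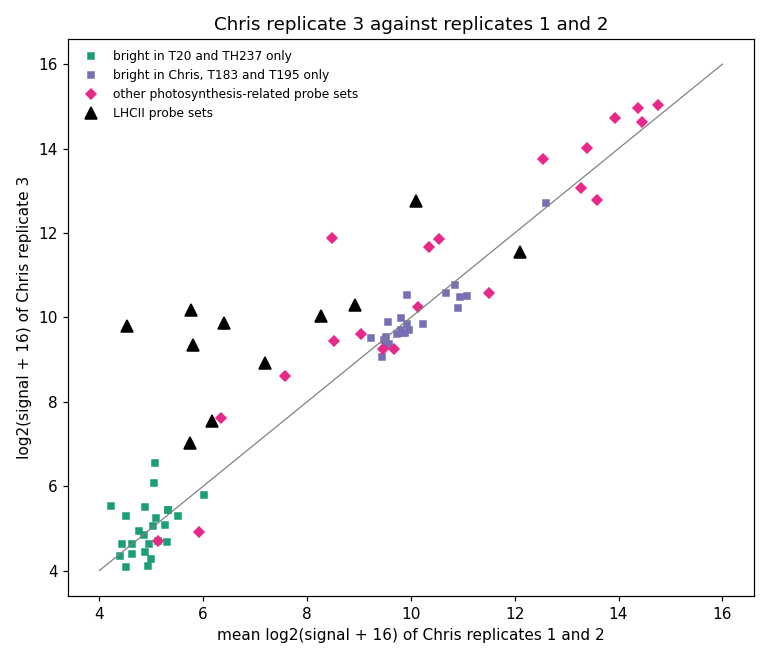
Log2(signal + 16) on Chris replicate 3 (vertical axis) against the mean of Chris replicates 1 and 2 (horizontal axis), with the line of equality. LHCII probe sets (black triangles) lie above the line in 10 of 11 cases, and the 25 probe sets bright in T20 and TH237 only (green) and the 22 bright in Chris, T183 and T195 only (violet) lie around it.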

How the data were processed

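Leaf RNA of 15 samples was hybridised one sample per array to the Affymetrix Wheat Genome Array. The deposited values are intensities on the linear scale, MAS 5.0 signals that the authors had scaled to a common trimmed mean, without quantile normalization. Their methods name RMA for their own comparisons. Of 61290 probe sets, 111 controls were left out. Here log2 was taken after adding 16, and R 4.3.3 with limma 3.58.1 fitted one model of 5 lines to 15 arrays (10 residual degrees of freedom) on the 31555 probe sets kept. Adjusted p-values are from limma with the Benjamini-Hochberg method over all of them, and calls needed an adjusted p of at most 0.05 and 2-fold. No more than the spread between these bulked samples enters them, and 3 arrays per line limit the precision. The code was tested on simulated data.

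Members were the LHC-II entries of the study's annotation that name a chlorophyll a/b-binding protein, and all were named. Of other lists, the probe sets with the largest change each way were named. Members and lists were chosen with earlier results of these data known. Symbols were updated with RefSeq, and 1273 probe sets carried one. No DNA sequence is shown. Alternatives covered the value added, scaling, filter, fold limit, test, arrays in the model, the replicate number as a block and the removal of each array.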

Additional observations from a re-analysis of the deposited data

Results flagged for a closer look

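Set against their own controls, the LHCII probe sets lay on opposite sides in TH237 and in the Aegilops lines, in which no member was called. In 10 of the 11 members every TH237 array was above the T20 mean while every T183 array was below the Chris mean, as in 6.76% of all probe sets, with fitted log2 changes of 0.64 to 3.54 in TH237 and of -2.04 to -0.65 in T183. The remaining member was Ta.29587.3.A1_at. In 10 of the 11 the same held for TH237 and T195 (7.93% of all probe sets), with changes of 1.05 to 3.54 and of -2.40 to -0.65, and here Ta.29587.2.S1_x_at was the one outside. The difference between the lines was not tested, because TH237 against T20, which is part of both counts, chose the members, and nothing is read from these counts. In T183 and T195, 6 members were dim on all arrays. Against the mean of Chris replicates 1 and 2 alone, 5 members met this for T183 and 7 for T195, beside 6.59% and 7.88% of all probe sets. Both counts include dim members, for which no direction is known without Chris replicate 3.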

How the results depend on the processing

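No member was called in T183, in T195 or between them under the 24 limma alternatives, which called 0.049% to 0.238% (T183 against Chris), 0.0703% to 0.55% (T195 against Chris) and 0.0212% to 0.153% (T183 against T195) of all probe sets. The methods' t-test called 1, 0 and 0 probe sets in all, so its count of members says nothing about stability. The numbers of the replicates did not pair the arrays, since same-numbered arrays correlated in their deviations from the line means at -0.20 to 0.03. With the replicate number as a block 0 members were called in each of the 3 comparisons. Every replicate number occurs once in each line, so the block could not move the medians over the members (-1.13 in T183, -1.20 in T195).

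Leaving out 1 array at a time moved the median over the members between -1.59 and -0.28 in T183, between -1.53 and -0.27 in T195, between 2.18 and 3.15 in TH237 against T20 and between 1.99 and 3.56 in T20 against Chris. The count of members past 2-fold stayed at 9 or 10 in both of these comparisons. The ends at -0.28, -0.27 and 3.56 were without Chris replicate 3, and all these medians include the dim members. Without Chris replicate 1 and without replicate 2 the T183 medians were -1.59 and -1.54.

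The signs of some fitted changes turned. No member was called under any setting, so this could occur only in uncalled members. The 4 named next for T183 and T195 against Chris were dim in both lines, so their signs cannot be read as directions. In T183 against Chris, leaving out 1 array at a time gave -2.04 to 0.25 in Ta.3249.3.A1_at, -0.48 to 0.33 in Ta.29587.3.A1_at and -1.77 to 0.12 in Ta.28496.1.A1_at. In T195 against Chris it gave -2.65 to 0.0804 in Ta.3249.1.S1_at. The upper ends were without Chris replicate 3, except for Ta.29587.3.A1_at, where that value was 0.27 and the 0.33 was without T183 replicate 1. Between T183 and T195 the ranges were -0.13 to 0.20 in Ta.30702.1.S1_x_at, -0.43 to 0.23 in TaAffx.114127.1.S1_x_at, -0.35 to 0.27 in Ta.3249.2.S1_x_at and -0.69 to 0.0641 in Ta.22984.1.S1_x_at. That difference in TaAffx.114127.1.S1_x_at also turned to -0.0158 with 64 added before the log2 and to -0.0883 with quantile normalization, and in Ta.30702.1.S1_x_at to -0.0521 with quantile normalization. The cause was not tested.

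With 3 arrays per line, probes shared between LHCB1 copies and 6 members below the 55th percentile in T183 and T195, small changes were not detectable at this precision. Fitted changes past 2-fold also went uncalled. In T183 against Chris, Ta.3795.1.S1_x_at, which was not dim, had -1.47 and an adjusted p of 0.320 from limma. The lack of calls thus does not exclude 2-fold changes of LHCII probe sets in these lines.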
